A study of Mus musculus with 13 samples.

Results

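Fgf5, which encodes a secreted fibroblast growth factor, and the 4 genes of the FGF receptor tyrosine kinases, Fgfr1, Fgfr2, Fgfr3 and Fgfr4, were described across RNA-seq libraries of mouse medulloblastoma. They are 5 of the 53653 genes of the count table, and all 5 were among the 22265 genes with enough counts to be tested. Fgf5 was chosen by its measured level, which was higher in Kmt2d knockout than in control tumours, so its values are a description and carry no test. The receptors were taken as a whole family by name, with earlier results of these data known, so their tests are not independent of that knowledge.

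The 13 libraries came from GFP-positive cells, sorted after papain dissociation, of mouse tumours in which SmoM2 was overexpressed. SmoM2, a Smoothened mutant that keeps Sonic Hedgehog signalling active, was common to all groups. Control primary tumours of the cerebellum (5 libraries, replicates 3 to 7) had SmoM2 alone and came from animals of 6 to 16 weeks. Knockout (KO) primary tumours (4 libraries, replicates 3, 4, 6 and 7) also lacked Kmt2d, a histone methyltransferase gene, and came from animals of 5 to 8 weeks, as did KO spinal cord metastases (4 libraries, replicates 3, 4, 6 and 7). Each primary tumour pellet held 1 to 5 M cells and each metastasis pellet 0.1 to 3 M. The sources used here do not give the driver of SmoM2 or of the Kmt2d deletion. Whether each library is from its own mouse is not in the labels, so p-values measure the spread between libraries, which may be technical.

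FGF ligands are secreted proteins that bind receptor tyrosine kinases together with heparan sulphate, or with a Klotho co-receptor for the hormone-like ligands. The bound receptor signals through the adaptor FRS2 to the RAS and ERK kinases, and ERK switches on genes such as Etv5 and, as a brake, Dusp6 and the Sprouty genes. FGF5 is best known as the signal that ends the growth phase of the hair cycle. In cultured granule cell precursors, the cells from which Hedgehog-driven medulloblastoma arises, FGF2 is known to oppose the proliferation that Hedgehog drives.

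Library totals ranged from 23.5 to 41.4 M counts. Olfactory and vomeronasal receptor genes, which these cells are not known to use, summed to more than 100 CPM (CPM being each count divided by the total of its library in M) in 4 libraries, namely control primary 3, KO primary 7, KO metastasis 6 and KO metastasis 7. These 4 are called the high-background libraries, and KO metastasis 3 stood apart by 2.06% of counts on mitochondrial genes. Xist was high in control primary 5, 6 and 7 and near 0 in the other 10 libraries. Kmt2d itself averaged 125 ± 36.7 CPM (SD) in control primary, 116 ± 35.7 in KO primary and 115 ± 11.2 in KO metastasis libraries. Its log2 difference in KO primary against control was -0.11 (edgeR adjusted p = 0.956), so the total count of the gene does not show its loss. The granule cell precursor label was checked on 10 marker genes, all detected. Their summed level was 2600 to 3380 CPM in control primary, 3190 to 3800 in KO primary and 3090 to 4380 in KO metastasis libraries. The members did not move together. Against control, edgeR called Atoh1 and Ccnd1 higher and Neurod1 lower in KO primary tumours. In metastases it called Atoh1, Barhl1 and Ccnd1 higher and Neurod1 lower. Neurod1 means were 567, 162 and 178 CPM in the 3 groups. Oligodendrocyte precursor markers were at 1150 to 1560, 727 to 1160 and 640 to 768 CPM in the same order. C1ql1 was the largest part of this sum, with means of 890, 514 and 416 CPM. Against control, edgeR called only C1ql1 of these 10 in KO primary tumours, as lower, and 4 as lower in metastases. Of all tested genes, edgeR called 1.15% higher and 1.78% lower in KO primary tumours, and 1.06% higher and 2.02% lower in metastases. Olig1 and Olig2 had higher means in KO primary tumours (146 and 129 CPM) than in controls (86.4 and 46.5 CPM), without a call. Markers of differentiated granule neurons were at 1290 to 2060, 772 to 900 and 852 to 1210 CPM. The 10 oligodendrocyte markers summed to 151 to 425, 76.1 to 110 and 182 to 1980 CPM, and Opalin was at 0 in all KO primary libraries. With edgeR, Mbp and Mobp, both genes of myelin proteins, were higher in metastases than in controls, and Mbp also than in KO primary tumours (adjusted p = 0.0485). The sum over microglia and macrophage markers was 9.39 to 70.6, 3.93 to 17.8 and 12.6 to 193 CPM. The part of these cell types in the metastasis values was not tested.

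Fgf5 lies on chromosome 5 (GRCm38 98254184 to 98277030, plus strand, protein coding). The sequence just before its start is shown because Fgf5 is the gene on which the group values turn. The 250 bases upstream of the RefSeq start (GRCm38.p6 chr5:98253934-98254183, plus strand) are 70.8% G and C, and the capitals mark the only match among 7 motifs searched.

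Fgf5 upstream: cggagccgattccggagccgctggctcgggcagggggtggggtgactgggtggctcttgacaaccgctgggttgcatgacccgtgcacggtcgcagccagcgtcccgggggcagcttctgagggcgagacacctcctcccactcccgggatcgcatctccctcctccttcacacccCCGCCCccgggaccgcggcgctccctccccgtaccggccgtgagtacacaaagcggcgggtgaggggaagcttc

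The match is a GC box (GGGCGG, read here on the other strand, starting at base 177), which 32.7% of 32851 mouse windows of the same length and place hold. On either strand there was no TATAAA (held by 12.4% of windows), no TGACGTCA (1.55%), no TGANTCA (6.75%), no TGGGTGGTC of GLI factors (0.225%), no CCGGAAGT of ETS factors (2.88%) and no CAGCTG (13%). No motif overlapped another in this window. A match is a string of letters and not a bound site.

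Fgf5 was low in control tumours and high in every knockout library. In control primary 3, 4, 5, 6 and 7 it was at 9.39, 6.78, 12.9, 7.31 and 2.4 CPM, scaled by the TMM method as all CPM below. In KO primary 3, 4, 6 and 7 it was at 160, 77.2, 56.6 and 31.3 CPM. In KO metastasis 3, 4, 6 and 7 it was at 36.8, 51.8, 56.2 and 24.2 CPM. The lowest knockout library lay above the highest control, while the metastases lay within the range of the KO primary tumours apart from KO metastasis 7, the lowest of all 8. KO primary 3 stood highest and KO primary 7, a high-background library, lowest among the KO primary tumours.

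The group means of Fgf5 were 7.76 ± 3.85 CPM (SD, n = 5) in control primary, 81.3 ± 55.8 (n = 4) in KO primary and 42.3 ± 14.7 (n = 4) in KO metastasis libraries. The ratio of means to the shared controls was 10.5 in KO primary tumours and 5.44 in metastases. The fitted log2 differences were 3.39 (SE 0.496) and 2.45 (SE 0.482), and -0.94 (SE 0.494) for KO metastasis against KO primary. These values chose the gene, and they rest on 89 to 340 counts per control library, 1156 to 6145 per KO primary and 840 to 1954 per KO metastasis library. Among all tested genes, Fgf5 stood at percentile 53.3 of mean CPM in control primary, 83.7 in KO primary and 72.8 in KO metastasis libraries. Without KO primary 3 the log2 difference of KO primary from control was 2.82 and that of KO metastasis from KO primary was -0.36. Without the 4 high-background libraries the differences from control were 3.76 and 2.61. In bulk RNA, fewer cells that express a gene and less RNA per cell cannot be told apart.

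**Figure D1:**
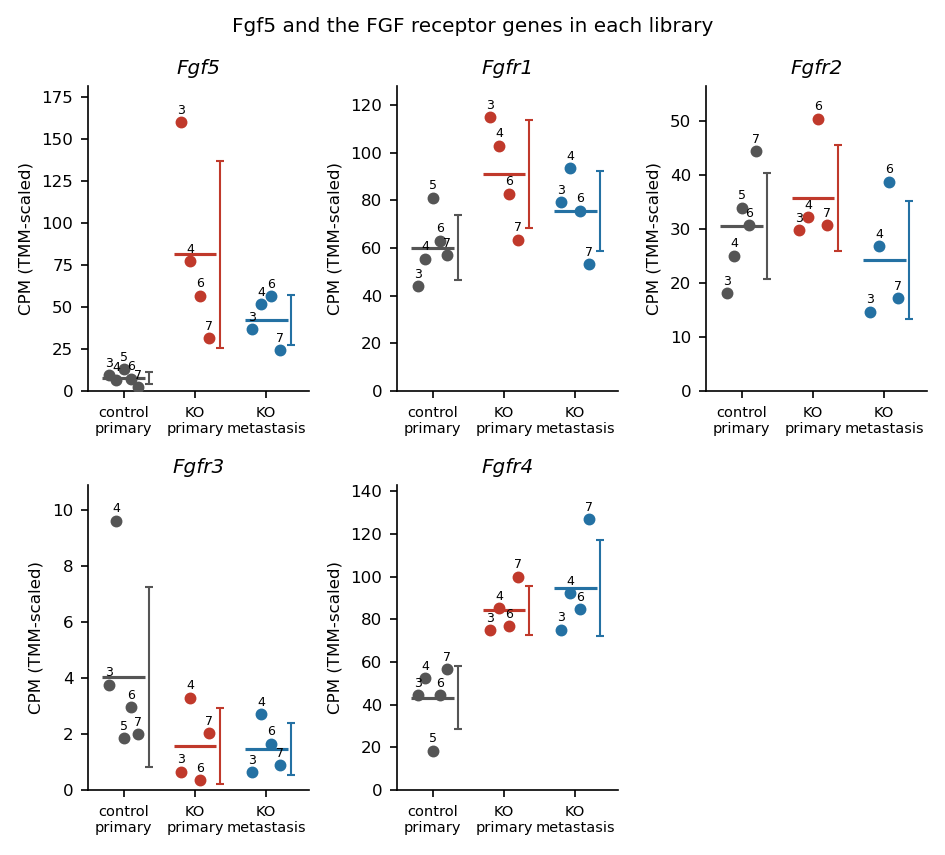
TMM-scaled CPM of Fgf5, Fgfr1, Fgfr2, Fgfr3 and Fgfr4 (vertical axes, each from 0) in the 3 groups, with 1 numbered point per library, a line at the group mean and a bar of ± 1 SD beside it. Fgf5 lies at or below 12.9 CPM in the 5 control libraries and at or above 24.2 CPM in the 8 knockout libraries, and Fgfr4 is the receptor whose knockout points all lie above its control points.

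Of the 4 receptors, Fgfr4 alone showed the same separation. It was higher in every knockout library than in every control, Fgfr1 had higher knockout means with libraries that overlapped, Fgfr2 overlapped throughout and Fgfr3 was low in all groups. With edgeR, 0 of the 4 receptors passed an adjusted p of 0.05 in KO primary against control primary, where 2.93% of all tested genes passed. Before adjustment 2 of 4 were under 0.05, DESeq2 called 1 and limma voom 2. In KO metastasis against control primary 1 of 4 passed, beside 3.08% of all tested genes. In KO metastasis against KO primary 0 of 4 passed (0.00449% of all tested genes), with 0 under 0.05 before adjustment and 0 by DESeq2 or limma voom.

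The receptor genes are similar enough that shared reads were checked first. The longest stretches of coding sequence that 2 receptors have in common, taken from the transcripts with the longest coding sequence, run from 14 to 26 bases. Those of Fgfr1 with Fgfr3 and with Fgfr4 are shown, the former because it is the longest of all and the latter because Fgfr4 is the receptor that passed a test.

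Fgfr1 and Fgfr3: gagatggagatgatgaaaatgattgg
Fgfr1 and Fgfr4: atggagaagaaactgcatgc

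The first starts at coding base 1624 of Fgfr1 and 1561 of Fgfr3. Over all annotated transcripts, the share of 50-base windows found in another gene was 0 for Fgfr3 and Fgfr4, 0.309% for Fgfr1, 0.8% for Fgf5 and 2.47% for Fgfr2. The other gene for Fgfr2 is Ctbp2, with which the annotated Fgfr2 model shares exon sequence, so counts from that stretch cannot be told apart between them.

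Fgfr4 lies on chromosome 13 (55152640 to 55168759, plus strand). It encodes the receptor that, with the co-receptor beta-Klotho, reads the intestinal hormone FGF15 in liver, and it also binds ligands that need only heparan sulphate. Fgfr4 was measured at 44.6, 52.3, 18.4, 44.6 and 56.7 CPM across control primary 3 to 7. Its level was 75.1, 85.3, 76.7 and 100 CPM for KO primary 3, 4, 6 and 7, and KO metastasis 3, 4, 6 and 7 read 75.2, 92.3, 84.8 and 127 CPM. Control primary 5 was the lowest library and KO metastasis 7 the highest, and no knockout library overlapped the controls. Complete separation from control was seen for 7.42% of tested genes in KO primary libraries (3.57% upwards and 3.85% downwards). In KO metastasis libraries it was seen for 6.82% (2.81% upwards and 4.01% downwards). The share for both knockout groups at once was not counted. These shares also stand beside the separations of other genes given below.

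Fgfr4 rose in KO metastasis against control primary, from 43.3 ± 14.8 CPM (n = 5) to 94.8 ± 22.5 (n = 4), a log2 difference of 1.13 (SE 0.26, 95% interval 0.57 to 1.69, edgeR adjusted p = 0.0306). Genes higher by this test made up 1.06% of all tested. This call was lost without control primary 6 (edgeR adjusted p = 0.0606), KO primary 4 (0.0524), KO primary 6 (0.0502), KO metastasis 4 (0.0713), KO metastasis 6 (0.0524) or KO metastasis 7 (0.103), while the log2 difference stayed between 0.95 and 1.26 over all 13 such fits. It was also lost without the 4 high-background libraries (log2 difference 0.97, edgeR adjusted p = 0.107) and without the 3 controls with Xist counts (1.04, edgeR adjusted p = 0.144).

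In KO primary tumours Fgfr4 was at 84.3 ± 11.5 CPM, a log2 difference of 0.96 from control (SE 0.26, 95% interval 0.40 to 1.52), and the edgeR adjusted p of 0.0696 missed the threshold. It passed without control primary 5 (log2 difference 0.75, edgeR adjusted p = 0.0398) and with DESeq2 (0.93, adjusted p = 0.0141). KO metastases and KO primary tumours differed by 0.17 (95% interval -0.42 to 0.76, edgeR adjusted p = 1).

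Fgfr1 (chromosome 8, 25513654 to 25575718, plus strand), a receptor of neural progenitors and many other cells, was measured at 43.9, 55.6, 81.1, 63.1 and 56.9 CPM across control primary 3 to 7. The knockouts KO primary 3, 4, 6 and 7 gave 115, 103, 82.8 and 63.6 CPM. In KO metastasis 3, 4, 6 and 7 it was at 79.3, 93.6, 75.7 and 53.3 CPM. KO primary 7 lay within the control range, as did KO metastasis 3, 6 and 7, and control primary 5 reached the KO range. The order of the KO primary libraries was that of Fgf5, while the orders of the metastases and of the controls were not.

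The means of Fgfr1 were 60.1 ± 13.6, 91.3 ± 22.8 and 75.5 ± 16.7 CPM, and the log2 difference of KO primary from control was 0.60 (SE 0.214, 95% interval 0.14 to 1.06, edgeR adjusted p = 0.181). It was 0.33 for KO metastasis (95% interval -0.13 to 0.79, edgeR adjusted p = 0.587). The KO primary difference passed with limma voom and quality weights (0.61, adjusted p = 0.0207) and, with edgeR, without the 4 high-background libraries (0.66, adjusted p = 0.0421).

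Fgfr2 (chromosome 7, 130162451 to 133123350, minus strand), a receptor of epithelia and glia, was measured at 18.2, 25.1, 34.0, 30.8 and 44.4 CPM across control primary 3 to 7. KO primary 3, 4, 6 and 7 held 29.8, 32.2, 50.5 and 30.7 CPM, and KO metastasis 3, 4, 6 and 7 held 14.7, 26.8, 38.8 and 17.2 CPM. All groups overlapped, with library 6 the highest of each knockout group. Set against control, the log2 difference was 0.23 in KO primary (95% interval -0.42 to 0.88, edgeR adjusted p = 0.91) and -0.32 for KO metastasis (95% interval -0.98 to 0.33, edgeR adjusted p = 0.785). Without the 3 controls with Xist counts the latter turned to 0.23.

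Fgfr3 (chromosome 5, 33721674 to 33737068, plus strand), in the brain a receptor mainly of astrocytes and their precursors, was measured at 3.76, 9.60, 1.86, 2.96 and 1.99 CPM across control primary 3 to 7. In KO primary 3, 4, 6 and 7 it was at 0.651, 3.29, 0.344 and 2.03 CPM, and in KO metastasis 3, 4, 6 and 7 at 0.646, 2.71, 1.65 and 0.892 CPM. Control primary 4 was the highest library, library 4 was also the highest of each knockout group, and the groups overlapped. The log2 difference was -1.35 for KO primary (95% interval -2.85 to 0.15, edgeR adjusted p = 0.445) and -1.45 for KO metastasis (95% interval -2.96 to 0.06, edgeR adjusted p = 0.381). The 12 astrocyte and Bergmann glia markers summed to 718 to 945 CPM in control primary, 796 to 1320 in KO primary and 793 to 1460 in KO metastasis libraries, and none was at 0 in a whole group. Sox9 was the largest part of this sum, with means of 287, 620 and 512 CPM. Against control, edgeR called Sox9 higher and Aqp4 lower in KO primary tumours, and Sox9 higher and Slc4a4 lower in metastases. The sum therefore does not stand for each marker. Their part in the receptor values was not tested.

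**Figure D2:**
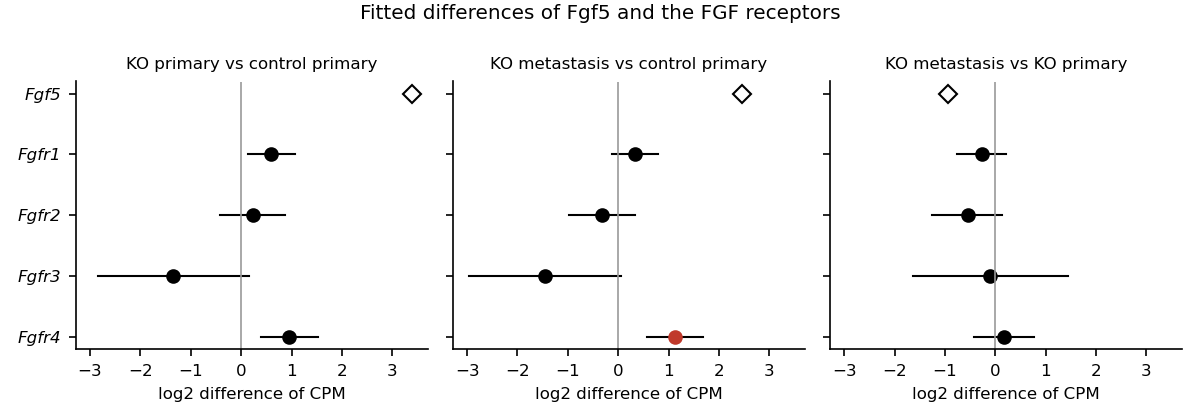
Fitted log2 differences of TMM-scaled CPM (horizontal axes) for Fgf5 and the 4 receptors in the 3 comparisons, with 95% intervals for the receptors and open diamonds without interval for Fgf5, which was chosen for these values. The filled red point is the 1 receptor value past an edgeR adjusted p of 0.05, Fgfr4 in KO metastasis against control primary at 1.13.

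Levels of different genes were compared as RPKM, which is the TMM-scaled CPM divided by the joined length of all annotated exons in kilobases. In control primary libraries the mean RPKM was 12.2 ± 4.19 for Fgfr4, 6.09 ± 1.38 for Fgfr1, 2.95 ± 0.951 for Fgfr2 and 0.564 ± 0.448 for Fgfr3. The libraries of Fgfr4 (5.20 to 16.0 RPKM) and Fgfr1 (4.45 to 8.22) overlapped there, while Fgfr1 and Fgfr2 (1.76 to 4.30) did not. In KO primary libraries the order was the same, with 23.8 ± 3.26, 9.25 ± 2.31, 3.47 ± 0.952 and 0.221 ± 0.190 RPKM, and no neighbours in it overlapped between libraries. KO metastasis libraries held 26.8 ± 6.36, 7.64 ± 1.69, 2.36 ± 1.06 and 0.206 ± 0.129 RPKM in that order, again without overlap.

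Fgfr4 thus took the largest share of summed receptor RPKM in 12 of 13 libraries, the exception being control primary 5. Its share was 65.1%, 61.1%, 30.7%, 56.2% and 60.8% in control primary 3 to 7. The mean share was 54.8% ± 13.8 in control primary, 64.7% ± 6.76 in KO primary and 71.8% ± 7.70 in KO metastasis libraries, with overlap between control and KO primary tumours. The sum over the 4 receptors was 21.8 ± 3.74, 36.7 ± 1.58 and 37.0 ± 5.14 RPKM, with the lowest knockout library at 30.8 and the highest control at 26.3.

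These shares depend on the length assigned to each gene. With the length of the transcript that has the longest coding sequence, an alternative chosen after seeing the data, the Fgfr4 share was 37.0%, 46.6% and 55.5% in the 3 groups, and Fgfr4 led in 4 of 5, 3 of 4 and 4 of 4 libraries. The order of the group means, Fgfr4, Fgfr1, Fgfr2 and Fgfr3, was kept under both lengths.

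**Figure D3:**
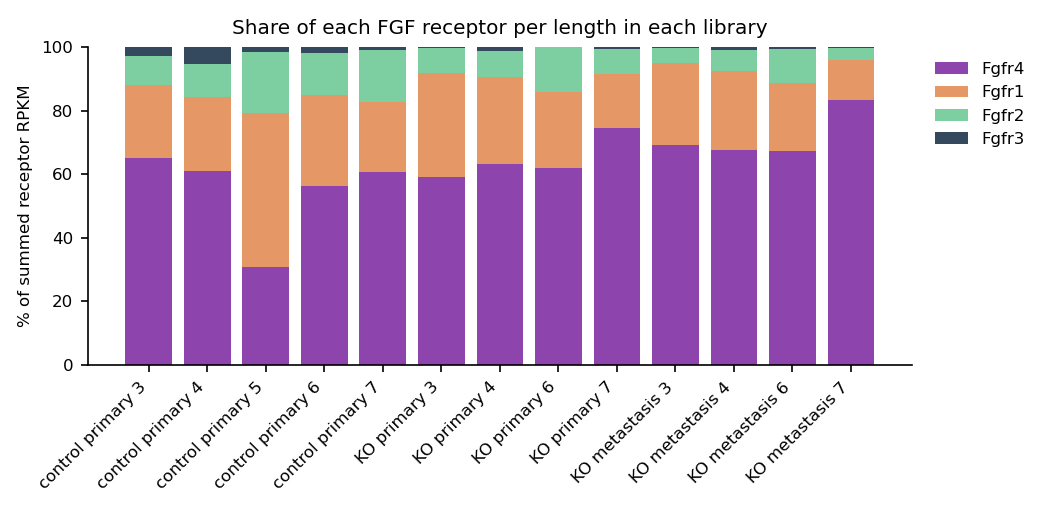
Share of each receptor in the summed receptor RPKM (vertical axis, percent, lengths from the union of exons) in each of the 13 libraries, stacked to 100%. Fgfr4 is the largest segment in every library but control primary 5, where it takes 30.7% and Fgfr1 takes 48.4%.

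Of 17 other paracrine and endocrine FGF ligand genes, 8 had enough counts to be tested, and 0 passed the edgeR test in any comparison. In KO primary tumours 2 of the 8 were under 0.05 before adjustment, with 0 calls by DESeq2 and 2 by limma voom, and in KO metastases 1 was, with 0 calls by either. Fgf9, a ligand that neurons secrete, was by far the most abundant of them per length. Its level was 93.1, 110, 110, 113 and 111 CPM in control primary 3 to 7, 143, 119, 121 and 99.9 in KO primary 3, 4, 6 and 7, and 120, 125, 118 and 112 in KO metastasis 3, 4, 6 and 7. The groups overlapped, and the log2 difference from control was 0.17 for KO primary (edgeR adjusted p = 0.647) and 0.15 for KO metastasis (edgeR adjusted p = 0.7).

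In RPKM, Fgf9 was at 23.1 ± 1.76, 26.0 ± 3.76 and 25.6 ± 1.11 in the 3 groups, and Fgf5 at 3.10 ± 1.54, 32.5 ± 22.3 and 16.9 ± 5.86. Fgf5 exceeded Fgf9 in KO primary 3 (64.0 against 30.7 RPKM) and KO primary 4 (30.9 against 25.6) and in none of the other 11 libraries. With the longest coding transcript as length, Fgf5 exceeded Fgf9 in 0 libraries, since the Fgf9 length falls from 4649 to 1593 bases and that of Fgf5 stays at 2501. Fgf7, a ligand of mesenchymal cells, averaged 0.880 ± 0.739 RPKM in KO metastasis libraries and was not called. Fgf15, the mouse hormone ligand of Fgfr4 in liver, averaged 0.147 ± 0.118, 0.861 ± 0.447 and 0.533 ± 0.341 CPM, and its log2 difference of 2.52 in KO primary libraries did not pass (edgeR adjusted p = 0.239). Fgf10 went the other way, at 3.2 ± 1.2, 1.1 ± 0.58 and 0.89 ± 0.61 CPM. Its log2 difference was -1.6 in KO primary (edgeR adjusted p = 0.255) and -1.85 in KO metastasis libraries (edgeR adjusted p = 0.175). Fgf15 and Fgf10 were the 2 ligands under 0.05 before adjustment in KO primary tumours, and Fgf10 the 1 in metastases. Both lie outside the naming rule and were chosen after their values were seen.

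The intracellular FGF homologous factors, which share the FGF fold but are not secreted and bind sodium channels, were measured with all 4 members. Fgf11 was measured at 3.80, 5.10, 3.46, 3.38 and 2.77 CPM across control primary 3 to 7. KO primary 3, 4, 6 and 7 read 0.260, 1.39, 0.873 and 0.379 CPM, and KO metastasis 3, 4, 6 and 7 read 0.646, 0.849, 0.702 and 0.834 CPM. Every knockout library was below every control. Of all tested genes, 3.85% lay wholly below control in KO primary and 4.01% in KO metastasis libraries. Fgf11 fell by 2.35 on the log2 scale in KO primary (SE 0.474, edgeR adjusted p = 0.0159) and by 2.28 in KO metastasis (SE 0.473, edgeR adjusted p = 0.0177) against control. Leaving out control primary 4 or KO primary 6 gave edgeR adjusted p-values of 0.0553 and 0.0544 in KO primary tumours. In KO metastases the edgeR adjusted p was 0.0633 without control primary 4, 0.0653 without KO metastasis 3, 0.0622 without KO metastasis 4, 0.0632 without KO metastasis 6 and 0.0506 without KO metastasis 7. The summed level of differentiated granule neuron markers, given above, was also lower in all knockout libraries than in all controls. Of these 10 markers edgeR called 6 lower and 1 higher in KO primary tumours, beside 1.78% and 1.15% of all tested genes. In metastases it called 7 lower and 1 higher, beside 2.02% and 1.06%. The higher one was Cbln1, and the part of these markers in the Fgf11 values was not tested. Fgf12, Fgf13 and Fgf14 were not called, and Fgf13 averaged 35.9 ± 7.94, 36.2 ± 4.39 and 34.8 ± 10.2 CPM.

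Over 8 lists of FGF pathway genes, from ligands to targets, 94 of 104 genes were tested. In KO primary against control 2 were higher and 2 lower (4.26%, against 2.93% of all tested genes), with 19 under 0.05 before adjustment. In KO metastasis 2 were higher and 4 lower (6.38%, against 3.08%), also with 19 before adjustment. Between the knockout groups 0 passed by edgeR, DESeq2 or limma voom, with 3 under 0.05 before adjustment in edgeR. Of all tested genes, 1.15% were higher and 1.78% lower in KO primary and 1.06% higher and 2.02% lower in KO metastasis libraries. The median log2 difference of the 94 genes was 0.05 and -0.04 in the comparisons with control, beside -0.053 and -0.039 over all tested genes. Leaving out control primary 3, a high-background library, raised the calls to 9 in each comparison, and without the 3 controls with Xist counts they were 0 in both.

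Co-receptors and binding proteins held 10 tested genes, of which 0 passed in KO primary (2 before adjustment, 1 by DESeq2 and 4 by limma voom) and 1 in KO metastasis libraries. Kl, the gene of the Klotho co-receptor, was measured at 10.6, 12.7, 8.55, 6.70 and 8.37 CPM across control primary 3 to 7. Its level was 11, 6.45, 7.88 and 6.39 CPM for KO primary 3, 4, 6 and 7, and KO metastasis 3, 4, 6 and 7 read 2.55, 4.67, 5.83 and 3.25 CPM. All 4 metastases were below all 9 primary tumours. Metastases and KO primary tumours did not overlap for 1.72% of all tested genes, 0.683% with the metastases higher and 1.04% lower. All metastases were below all controls for 4.01% of tested genes. The share below both primary groups at once was not counted. The log2 difference of KO metastasis from control was -1.20 (SE 0.291, edgeR adjusted p = 0.0378), and the call was lost in 9 of 13 fits that left out 1 library, with the adjusted p reaching 0.13 without KO metastasis 3. Those libraries were control primary 4, 5, 6 and 7, KO primary 4 and 6, and KO metastasis 3, 4 and 7. The 9 ependymal and choroid plexus markers, of which Kl is one, summed to 25.6 to 56.6, 16.1 to 18.9 and 7.34 to 16.0 CPM in the 3 groups, and their part in the Kl value was not tested. Ncam1, a neural adhesion molecule that binds FGF receptors, averaged 505 ± 104, 329 ± 64.3 and 448 ± 113 CPM, and Cdh2, N-cadherin, 194 ± 55.4, 219 ± 55.3 and 188 ± 58.2 CPM, both without a call.

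None of the 12 heparan sulphate core protein genes and none of the 15 genes of heparan sulphate enzymes passed the edgeR test in any comparison. Before adjustment 4 core protein and 3 enzyme genes were under 0.05 in KO primary tumours, where DESeq2 called 0 and 2 and limma voom 4 and 4. In KO metastases the numbers were 4 and 4 before adjustment, 1 and 3 by DESeq2 and 3 and 3 by limma voom. Gpc1, a glypican of neurons, averaged 212 ± 32.5, 251 ± 69.9 and 223 ± 87.2 CPM in the 3 groups. Gpc3, a glypican that curbs Hedgehog signalling, averaged 55.1 ± 20.2, 93.1 ± 20.1 and 63.7 ± 21.9 CPM (edgeR adjusted p = 0.226 for KO primary). Among the enzymes, Ext2 of chain polymerisation averaged 157 ± 17.0, 152 ± 26.6 and 130 ± 33.5 CPM, and Ndst1 of N-sulphation 141 ± 54.5, 99.8 ± 30.3 and 95.5 ± 32.5 CPM.

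Among 21 signal transducers from the adaptors to ERK, 1 passed the edgeR test (4.76%), and it fell in both comparisons with control. Of all tested genes 2.93% passed in KO primary and 3.08% in KO metastasis libraries. In KO primary tumours 1 was under 0.05 before adjustment, with 1 call by DESeq2 and 1 by limma voom. In KO metastases 3 were, with 2 calls by DESeq2 and 3 by limma voom. Mapk3, which encodes ERK1, was measured at 142, 128, 131, 147 and 145 CPM across control primary 3 to 7. The knockouts KO primary 3, 4, 6 and 7 gave 66.0, 87.7, 80.5 and 88.6 CPM, and KO metastasis 3, 4, 6 and 7 read 100, 95.5, 80.2 and 95.7 CPM. The knockout libraries all lay below the controls, as 3.85% of tested genes did in KO primary and 4.01% in KO metastasis libraries. Mapk3 fell by 0.78 on the log2 scale in KO primary (SE 0.121, edgeR adjusted p = 0.00302), a call kept in every fit that left out 1 library. It fell by 0.58 in KO metastasis (SE 0.12, edgeR adjusted p = 0.0179), a call lost without control primary 4 (0.051), control primary 6 (0.0682), control primary 7 (0.0624), KO metastasis 4 (0.055) or KO metastasis 6 (0.0957). Map2k2, which encodes MEK2, a kinase that phosphorylates ERK1, was at 174 to 206 CPM in every library and was not called.

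**Figure D4:**
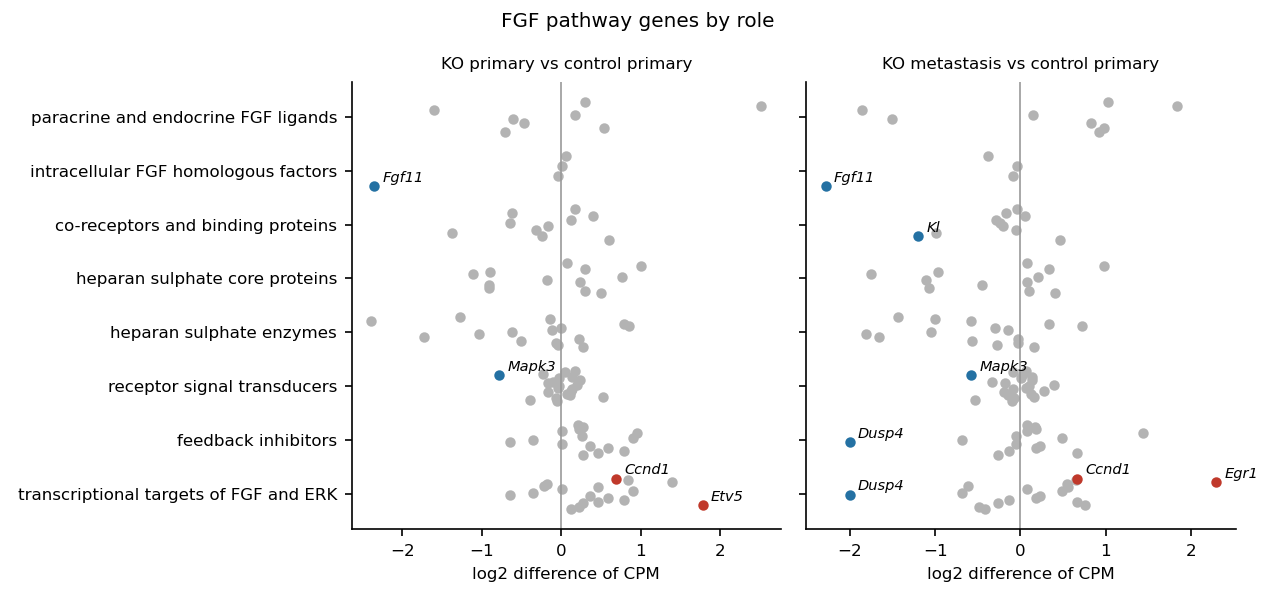
Fitted log2 differences of TMM-scaled CPM (horizontal axes) of each tested gene in 8 FGF pathway lists (rows), for KO primary and KO metastasis against control primary, with a gene of more than one list drawn in each. Named red points rose and named blue points fell at an edgeR adjusted p under 0.05, 4 genes on the left and 6 on the right, and grey points did not pass.

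Every gene of these 8 lists that rose was in the list of ERK targets. Of 18 target genes, 2 rose and 0 fell in KO primary libraries, and 14 had a difference above 0 (median 0.41, beside -0.053 over all tested genes). In KO metastases 2 rose and 1 fell, and 11 had a difference above 0 (median 0.20, beside -0.039). Between the knockout groups 5 were above 0 (median -0.37) and 0 were called by edgeR, DESeq2 or limma voom, with 2 under 0.05 before adjustment in edgeR. Against control, 6 targets in KO primary and 5 in KO metastasis libraries were under 0.05 before adjustment, DESeq2 called 4 in each, and limma voom 5 in each. Etv5, an ETS transcription factor that FGF signalling induces, was measured at 68.8, 70.6, 148, 132 and 70.5 CPM across control primary 3 to 7. KO primary 3, 4, 6 and 7 read 413, 347, 412 and 172 CPM, and KO metastasis 3, 4, 6 and 7 read 63.1, 244, 222 and 129 CPM. Every KO primary library was above every control, and the metastases spread from 63.1 CPM, the lowest value of all, to 244 CPM. Etv5 rose in KO primary by 1.78 on the log2 scale (SE 0.387, edgeR adjusted p = 0.0229), and the KO metastasis difference of 0.75 did not pass (SE 0.383, edgeR adjusted p = 0.422). The difference between the knockout groups was -1.03 (SE 0.409, edgeR adjusted p = 1). The rise in KO primary tumours was lost without control primary 4 (0.0795), control primary 7 (0.0713), KO primary 3 (0.0913), KO primary 4 (0.0813) or KO primary 6 (0.0894).

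Ccnd1, the gene of cyclin D1, was measured at 361, 318, 354, 359 and 299 CPM across control primary 3 to 7. Its level was 593, 503, 608 and 470 CPM for KO primary 3, 4, 6 and 7, and KO metastasis 3, 4, 6 and 7 read 642, 495, 522 and 482 CPM. No knockout library overlapped the controls. Wholly above control were 3.57% of tested genes in KO primary and 2.81% in KO metastasis libraries. It is also a target of Hedgehog signalling and one of the 10 granule cell precursor markers above. Ccnd1 rose by 0.69 in KO primary (SE 0.123, edgeR adjusted p = 0.00783) and by 0.66 in KO metastasis (SE 0.123, edgeR adjusted p = 0.00976), and the latter missed the threshold without KO metastasis 3 (0.0517).

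Egr1, an immediate early transcription factor gene that ERK induces, was measured at 307, 95.6, 455, 167 and 176 CPM across control primary 3 to 7. The knockouts KO primary 3, 4, 6 and 7 gave 756, 546, 993 and 230 CPM, and KO metastasis 3, 4, 6 and 7 read 1150, 1230, 1330 and 978 CPM. KO primary 7 lay within the controls and the metastases lay above all of them. Egr1 rose by 2.29 in KO metastasis (SE 0.43, edgeR adjusted p = 0.0104), a call kept in every fit without 1 library. The KO primary difference of 1.39 did not pass (SE 0.422, edgeR adjusted p = 0.108), but it passed without control primary 5 (1.78, edgeR adjusted p = 0.0346) or KO primary 7 (1.70, edgeR adjusted p = 0.0259).

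Of 15 feedback inhibitors, 0 passed in KO primary libraries (2 before adjustment, 0 by DESeq2 and 1 by limma voom), while 1 fell in KO metastases. In KO primary libraries 13 had a difference above 0 (median 0.27, beside -0.053 over all tested genes). Spry1, Spry2, Spry4, Spred1, Spred2, Dusp4, Dusp5, Dusp6 and Il17rd are also in the list of ERK targets. The counts of these lists are therefore not separate results. Dusp4, a phosphatase of nuclear ERK, was measured at 11.6, 27.3, 17.7, 32.0 and 26.4 CPM across control primary 3 to 7. KO primary 3, 4, 6 and 7 read 18.5, 16.6, 18.2 and 5.25 CPM, and KO metastasis 3, 4, 6 and 7 read 3.20, 6.76, 8.18 and 4.89 CPM. The metastases were below all controls, and KO primary 7 lay among the metastases. Dusp4 fell by 2 on the log2 scale in KO metastasis (SE 0.409, edgeR adjusted p = 0.0165), which was lost without control primary 4 (0.0506), KO metastasis 3 (0.0742), KO metastasis 4 (0.0523) or KO metastasis 7 (0.0564).

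Dusp6, the phosphatase most closely tied to FGF and ERK activity, was chosen after its values were seen. It was measured at 73.4, 47.7, 108, 70.6 and 44.9 CPM across control primary 3 to 7, with 178, 129, 154 and 57.8 CPM for KO primary 3, 4, 6 and 7. In KO metastasis 3, 4, 6 and 7 it was at 52.9, 124, 129 and 80.2 CPM. KO primary 7 lay among the controls and the other KO primary libraries above them. The log2 difference of 0.91 did not pass (SE 0.346, edgeR adjusted p = 0.223). Spry1, Spry2, Spry4, Etv1 and Etv4 of the target list also had no edgeR call in KO primary tumours. Their log2 differences were 0.28, 0.46, 0.79, 0.12 and 0.23 in that order. In metastases the mean was below control for Spry1, Spry4, Etv1 and Etv4 and above it for Spry2. These genes too were chosen after their values were seen. Spred1 and Rasa1, which of the uncalled inhibitors had the highest mean CPM over all 13 libraries, averaged 93.4 and 134 CPM in control primary libraries. Also not called was the transcription factor gene Myc, whose log2 difference was 0.84 in KO primary (edgeR adjusted p = 0.0792).

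**Figure D5:**
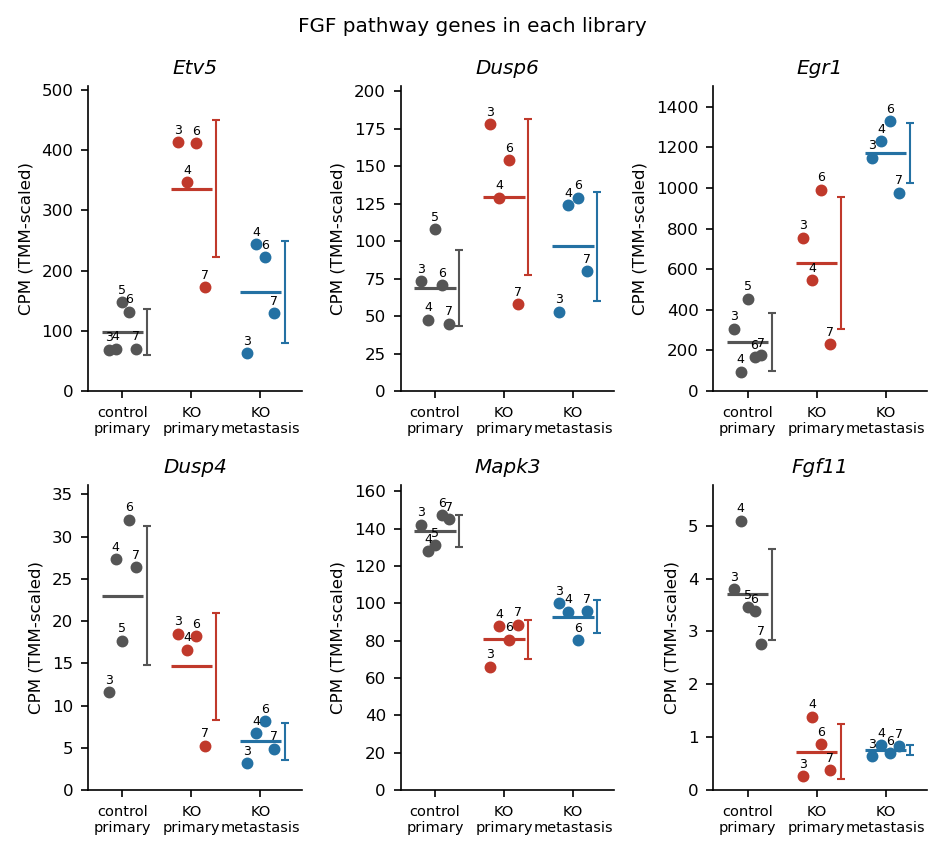
TMM-scaled CPM (vertical axes, each from 0) of 6 FGF pathway genes in each library, numbered by replicate, with a line at the group mean and a bar of ± 1 SD. Etv5 is highest in KO primary tumours and Egr1 in KO metastases, Mapk3 and Fgf11 are lower in all knockout libraries than in all controls, and Dusp6 overlaps between groups.

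The genes beside Fgf5 on chromosome 5 did not pass the edgeR test in any comparison, with 1 of the 5 tested under 0.05 before adjustment in KO primary tumours and 0 calls by DESeq2 or limma voom. Prdm8, a transcriptional regulator gene 65.2 kb before Fgf5, was measured at 46.6, 76.6, 60.7, 62.1 and 42.1 CPM across control primary 3 to 7. Its level was 126, 75.9, 65.7 and 40.1 CPM for KO primary 3, 4, 6 and 7, and KO metastasis 3, 4, 6 and 7 read 103, 89.4, 61.6 and 41.7 CPM. The groups overlapped, with library 3 the highest of both knockout groups, and the log2 difference was 0.42 in KO primary (edgeR adjusted p = 0.703). Antxr2, an anthrax toxin receptor gene 223 kb away on the same side, had a log2 difference of 0.80 in KO primary (SE 0.278, edgeR adjusted p = 0.17) and 0.51 in KO metastasis (edgeR adjusted p = 0.462). Gk2 (797 kb), Bmp3 (577 kb) and Prkg2 (653 kb) stayed at or below 9.47 CPM in every library, and Gm11111 (276 kb) had too few counts to be tested.

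The genes whose log2 CPM followed Fgf5 most closely over the 13 libraries, among 11172 with a mean of at least 5 CPM, were RP23-230C2.2 (Pearson's r = 0.979), Fam212b (0.961), Mmp11 (0.961), Scara3 (0.957), Efhd2 (0.956) and Ttc7 (0.949). The points share libraries, depth and the 3 groups, so these values are a description. Scara3, a scavenger receptor gene, was measured at 3.76, 2.13, 5.17, 3.48 and 2.23 CPM across control primary 3 to 7. The knockouts KO primary 3, 4, 6 and 7 gave 40.9, 23.8, 20.1 and 8.21 CPM, and KO metastasis 3, 4, 6 and 7 read 7.15, 13.5, 13.7 and 5.64 CPM. Its KO primary libraries stood in the same order as those of Fgf5. Fam212b, at higher levels, ranged from 80.4 to 128 CPM in control primary, 200 to 279 in KO primary and 188 to 240 in KO metastasis libraries. Among the receptors, r with Fgf5 was 0.774 for Fgfr1, 0.512 for Fgfr4, 0.00603 for Fgfr2 and -0.513 for Fgfr3. These values stood at percentiles 97, 84.1, 41.1 and 11 of r among the 11172 genes.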

How the data were processed

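Raw read counts per gene symbol were deposited for 13 libraries, with 1 column for each sample and no column without one. The submitters' processing notes name build mm10 with STAR 2.4, HTSeq 0.6.1 and DESeq2. The sources used here give no role for each, no annotation and no strand setting, so overlapping genes on opposite strands cannot be told apart.

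The 5 genes and all lists were chosen with earlier results of these data known. All 13 libraries were fitted together by group with edgeR 4.0.16 in R 4.3.3 (filterByExpr with minimum count 10 and minimum total 15, TMM, quasi-likelihood F test), and p-values were adjusted by Benjamini-Hochberg over all 22265 tested genes, with calls at 0.05. This test was tried on counts simulated from its own fitted model, which cannot show how it performs on these libraries. DESeq2 1.42.0, limma voom 3.58.1 and other filters, scalings and samples were alternatives.

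Positions and lengths are from GENCODE M21 (GRCm38). RefSeq upstream sequence (GRCm38.p6) matched Fgf5, Fgfr2, Fgfr3 and Fgfr4. The text names the 5 genes, each list's called members (up to 6 per comparison) and its 2 uncalled members of highest mean CPM, 3 annotated neighbours on each side of Fgf5 and the 6 genes of highest correlation with it (log2 CPM, prior count 2). One gene that this rule selects is not reported here.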

Additional observations from a re-analysis of the deposited data

Results flagged for a closer look

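Within each group, the highest or lowest library of 39 named genes was set against the rest by its gap to the nearest other library. Of 117 such gene and group pairs, 11 had a library far from the others, where chance gives about 1 in 20. Of these, 3 were of Gm11111, a gene with too few counts to be tested, whose gap is large wherever the other libraries are at 0. Among the genes with enough counts there were 8 in 114 pairs. Among the receptors, Fgfr2 was at 50.5 CPM in KO primary 6, against 29.8 to 32.2 in the other KO primary libraries, and Fgfr3 was at 9.60 CPM in control primary 4, against 1.86 to 3.76 in the other controls. Control primary 3, a high-background library, was far below the other controls for Fgf9 (93.1 CPM) and Cdh2 (97.6 CPM) and far above them for the Fgf5 neighbours Gk2 (9.47 CPM) and Gm11111 (0.418 CPM). KO primary 7, also of high background, was low for Dusp4 (5.25 CPM) and Efhd2 (161 CPM) and the 1 library of its group with Gm11111 counts (0.217 CPM). KO metastasis 4 was the 1 metastasis with Gm11111 counts (0.0265 CPM). RP23-230C2.2 was low in control primary 7 (5.19 CPM). Causes were not tested.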

How the results depend on the processing

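Low counts limit the precision of Fgfr3, Fgf11 and most other ligands. The Fgf5 differences kept their direction under every alternative. Against control this was all but fixed beforehand, since Fgf5 was chosen for it and every knockout library lay above every control. Leaving out 1 library gave 277 to 1032 called genes for KO primary against control, 369 to 1199 for KO metastasis against control and 0 to 2 for KO metastasis against KO primary, and 2 to 9, 2 to 9 and 0 FGF pathway genes. Over these fits the KO primary difference of Fgfr4 ran from 0.75 to 1.06 and the KO metastasis difference from 0.95 to 1.26; between the knockout groups Fgfr4 ran from -0.0077 to 0.32, Fgfr3 from -0.54 to 0.55, Ccnd1 from -0.086 to 0.049 and Fgf11 from -0.19 to 0.58. In the order of the 3 comparisons, DESeq2 called 1510, 1532 and 33 genes (9 and 12 pathway genes against control), limma voom 3267, 3822 and 2 (21 and 19), exclusion of the high-background libraries 1427, 1274 and 5 (9 for KO primary), and exclusion of controls with Xist counts 138, 100 and 0 (0 and 0); the last leaves 2 controls. Between the knockout groups, no low-count filter gave 2 genes and the compared groups alone 0. Against control in KO primary, Fgfr4 passed with DESeq2 (0.93), voom (0.92) and Fgfr1 with voom (0.61) and without the high-background libraries (0.66). In KO metastasis, Fgfr4 missed with the compared groups alone (1.12), without the high-background libraries (0.97) and without controls with Xist counts (1.04), where Fgfr2 turned to 0.23. Between the knockout groups Fgfr3 turned to 0.12 with voom and 0.25 without the high-background libraries, Fgf11 to -0.16 in the latter, and Ccnd1 to 0.011 with DESeq2 or its size factors, 0.029 with 2 groups alone, 7e-04 without the high-background libraries and 0.0029 without controls with Xist counts. The causes were not tested.

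The labels do not say whether the replicate numbers pair the libraries. For same-numbered KO metastasis and KO primary libraries, deviations from the group means correlated by 0.0671, 0.267, 0.338 and 0.598. Of these, 2 of 4 were best with their own number. Subtracting the group means balances the values of each library with the other group around 0. Negative values for other pairs are thus built in, and the check cannot decide whether libraries are paired. With the replicate block, KO primary Fgfr4 passed (0.76, edgeR adjusted p = 0.0111), 8 pathway genes were called for KO primary, 0 genes were called between the knockout groups (10 with the block in the 8 knockout libraries alone), Fgfr3 there turned to 0.058 and 0.17, and Ccnd1 to 0.027.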
